A study of Homo sapiens with 8 samples.

Results

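The genes described here are 57 genes of the cell division cycle, 36 that act at the G1/S transition or in DNA synthesis and 21 that act in G2 and mitosis. They were taken from the deposited expression table by gene name, from a list chosen with earlier results of these data known. All 57 were among the 35805 genes in the table and all 57 were among the 14665 tested, whose deposited log2 values averaged 0 or more. RNA was sequenced from K562, a human chronic myeloid leukaemia line with erythroid features, in 4 groups of 2 libraries. Every group, the untransduced cells included, carried dCas9-KRAB, a dead Cas9 joined to a repressor domain. The untransduced cells had received no guide. The other groups carried the guide sgAAVS1, which targets the AAVS1 site and is the negative control, or sg1-IRF2 or sg2-IRF2, which target IRF2, and their RNA was taken 7 days after transduction. IRF2 is a transcription factor that binds interferon response elements. No label states if replicate libraries are separate cultures, and p-values here cover only the spread between libraries, which may be technical. A single line carrying a constitutive repressor and 1 time point limit the model, and in bulk RNA fewer cells in a phase and less RNA per cell cannot be told apart.

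Cells commit to DNA synthesis when E2F factors are released from RB proteins and switch on the genes of the replication machinery. The MCM2 to MCM7 ring is loaded on origins by ORC, CDC6 and CDT1, and CDC45 and the GINS complex turn that ring into an active helicase. Later in the cycle the DREAM complex gives way to MYBL2 and FOXM1, which switch on the cyclins, kinases, motors and checkpoint proteins of mitosis through CHR and CCAAT promoter elements. K562 divides fast, so both gene sets are active in an unsynchronised culture, and their RNA levels are commonly read as a sign of how cells are spread over the cycle.

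The deposited values are on a log2 scale that returns whole reads for each gene, and the libraries held 5248359 to 6738348 such reads. In each library the values were shifted so that the median over the tested genes was the same (aligned log2 values), and a difference of 1 on that scale is a doubling. IRF2 itself had 271 and 268 reads in the untransduced libraries, 196 and 291 under sgAAVS1, 4 and 8 under sg1-IRF2, and 22 and 21 under sg2-IRF2. The fitted IRF2 difference from sgAAVS1 was -5.43 ± 0.21 (SE, log2) with sg1-IRF2 and -3.55 ± 0.21 with sg2-IRF2. All 13 markers of K562 listed for the check were expressed, and their summed level was 1346 to 1500 RPM (reads scaled to library size) in every library. Of the lymphoid markers 2 of 6 passed the filter, with MS4A1 and CD8A at 0 reads and a summed level of 41.1 to 46.5 RPM. Of the myeloid markers 2 of 5 passed, with sums of 73.2 to 84.1. Of the markers of an adherent line 5 of 7 passed, THY1 had no read, and the sums were 213 to 240. ALAS2, the haem synthesis enzyme of erythroid cells, was higher in each of the 3 guide groups than in untransduced cells, by 0.26 to 0.37 on the log2 scale, and HBZ, an embryonic globin gene, was higher with sgAAVS1, by 0.35. Of the K562 markers 12 of 13 lay above 0 against untransduced cells with sgAAVS1 (median 0.12), 12 with sg1-IRF2 (median 0.096) and 11 with sg2-IRF2 (median 0.072). Among the other lists COL1A1 was lower with sg1-IRF2 than in any other group, COL1A2 was lower than in untransduced cells with sg1-IRF2 (-0.95) and sg2-IRF2 (-0.77), and ITGAM was lower than in untransduced cells with sgAAVS1 (-0.42) and sg2-IRF2 (-0.43). The part of these markers in the results was not tested.

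Distances between libraries over all genes did not follow IRF2 repression. Chi-square per degree of freedom over genes, which is 1 where counting error alone separates a pair, was 0.820 between the untransduced libraries, 0.780 for sg1-IRF2 and 0.659 for sg2-IRF2, but 1.66 between the sgAAVS1 libraries. The untransduced, sg1-IRF2 and sg2-IRF2 pairs thus differed by less than counting error. The p-values and intervals below rest on the spread of these replicates, and whether they are too small was not tested. Replicate 1 of sgAAVS1, the shallowest library, was closer to replicate 1 of sg1-IRF2 (1.11) and replicate 2 of sgAAVS1 closer to replicate 2 of sg1-IRF2 (1.22) than they were to each other. The differently numbered pairs of sgAAVS1 and sg1-IRF2 libraries gave 1.54 and 1.70. Untransduced and sg2-IRF2 libraries gave 1.12 to 1.31 between them, against 1.91 to 2.12 between untransduced libraries and those of sgAAVS1 or sg1-IRF2. Libraries of sgAAVS1 and sg2-IRF2 gave 1.70 to 2.345 between them, and libraries of the IRF2 guides gave 1.27 to 1.55. By these distances sg1-IRF2 was not clearly nearer to sgAAVS1 than to sg2-IRF2. Several members below were high with sgAAVS1 and sg1-IRF2 and low in the other 2 groups. The part of the distances over all genes in their results was not tested.

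The 2 gene classes differ in how often their promoters hold E2F and CHR letters, which is shown first because it uses no expression value. The classes hold genes known for control through these elements, as described above, so the shares describe the lists and test nothing. RefSeq promoter windows (build GRCh38.p14, 250 bases before to 50 after the start) were matched for 48 of the 57 genes, 31 G1/S and 17 G2/M. AURKA, CCNE2, E2F8, FOXM1, GINS4, MCM4, MCM5, TTK and UBE2C were not matched. Both strands were searched for E2F letters (TTTCCCGC or TTTCGCGC or TTTGCCGC or TTTGGCGC), for CHR letters (TTTGAA or TTCGAA), for CCAAT, and for the interferon response letters (GAAA, any 2 bases, GAAA). The sequences below run 5′ to 3′ on the gene's strand, hold no GENCODE 29 exon, and carry each match in capitals, with E2F or CCAAT letters in the first 4 and CHR or CCAAT letters in the last 3.
E2F1, chr20:33686406-33686505, minus strand: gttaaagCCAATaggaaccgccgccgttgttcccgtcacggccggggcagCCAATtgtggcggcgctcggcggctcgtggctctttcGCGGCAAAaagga
E2F2, chr1:23531234-23531353, minus strand: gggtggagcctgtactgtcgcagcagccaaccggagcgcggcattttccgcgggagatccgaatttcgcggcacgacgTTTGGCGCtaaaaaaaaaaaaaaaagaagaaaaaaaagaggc
MCM6, chr2:135876444-135876563, minus strand: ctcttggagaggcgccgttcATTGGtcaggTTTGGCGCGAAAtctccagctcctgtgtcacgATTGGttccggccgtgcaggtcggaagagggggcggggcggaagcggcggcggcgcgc
POLA1, chrX:24693768-24693887, plus strand: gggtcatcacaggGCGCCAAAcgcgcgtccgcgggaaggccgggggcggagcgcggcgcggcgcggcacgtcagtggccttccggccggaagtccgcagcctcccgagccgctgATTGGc
CDC20, chr1:43358861-43358954, plus strand: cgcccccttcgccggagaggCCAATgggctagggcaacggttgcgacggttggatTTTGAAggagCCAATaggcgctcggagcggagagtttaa
KIF11, chr10:92593010-92593129, plus strand: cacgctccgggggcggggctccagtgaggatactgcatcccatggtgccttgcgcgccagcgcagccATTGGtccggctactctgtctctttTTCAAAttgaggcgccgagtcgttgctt
MKI67, chr10:128126424-128126543, minus strand: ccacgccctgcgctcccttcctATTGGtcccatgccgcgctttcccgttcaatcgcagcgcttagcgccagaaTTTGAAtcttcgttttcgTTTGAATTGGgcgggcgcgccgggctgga

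In E2F2, the member with calls in 4 comparisons, the E2F letters begin 42 bases before the start site. The MCM6 run holds 2 overlapping E2F matches, 1 on each strand, which begin 90 and 86 bases before the start. In KIF11 and MKI67 CHR letters begin 28 and 29 bases before the start, and in MKI67 they overlap CCAAT letters. E2F letters stood in 19 of 31 G1/S windows (61.3%) and in 2 of 17 G2/M windows (11.8%), against 5.38% of the 9612 windows of tested genes and 3.33% of all 27305 windows. CHR letters stood in 2 of 31 G1/S windows (6.45%) and in 11 of 17 G2/M windows (64.7%), against 10.9% of those of tested genes and 16.6% of all. CCAAT stood in 58.1% and 88.2%, against 36.9% and 35.7%. CHR and CCAAT letters stood together in 10 of 17 G2/M windows (58.8%), against 4.72% of those of tested genes and 6.58% of all. The interferon response letters stood in 0 of 48 member windows and in 2.75% of those of tested genes. Of the 7 members called in any comparison, GINS1 and GINS3 also held E2F letters, 5 bases after and 5 bases before the start. UHRF1 held them 14 bases before, KIF20A held 2 CCAAT matches and no CHR letters, and GINS4 and FOXM1 had no matched window. A match is a string of letters and does not show that a factor binds there.

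**Figure D1:**
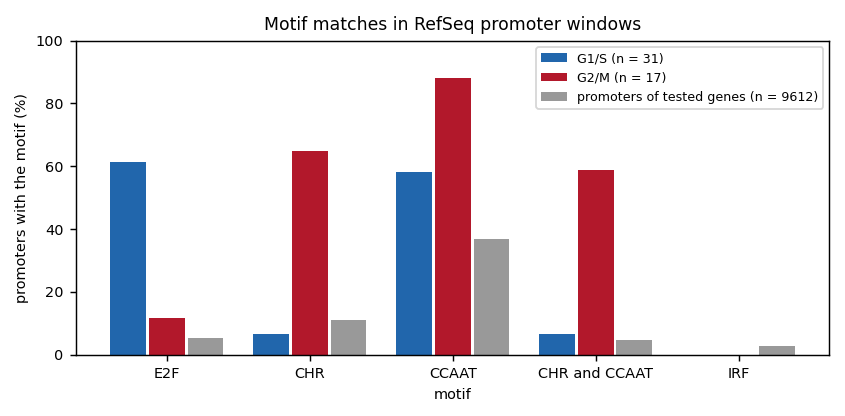
Share of RefSeq promoter windows (y axis, percent) that hold each motif (x axis) for the 31 matched G1/S members, the 17 matched G2/M members and the 9612 windows of tested genes. E2F letters were in 61.3% of G1/S windows and CHR letters in 64.7% of G2/M windows.

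Both classes were well expressed. As RPKM (reads per kb of exon, scaled to library size), the level in untransduced cells had a median of 23.0 over the G1/S members, from 7.60 for GINS3 to 61.2 for MYBL2, and a median of 34.3 over the G2/M members, up to 60.2 for CCNA2. The highest G1/S levels after MYBL2 were those of PCNA (61.0), the sliding clamp of the polymerases, and MCM3 (56.2). Their order is not firm, since PCNA varied by 3.92 (SD, n = 2 libraries) and MYBL2 by 1.34. The lowest G1/S members after GINS3 were CCNE2 (8.52), which encodes a cyclin of S phase entry, and GINS4 (8.67). UBE2C, which encodes the ubiquitin-conjugating enzyme of the anaphase-promoting complex, was the lowest G2/M member at 0.862. It had 7, 7, 9, 11, 4, 18, 6 and 7 reads in the libraries of untransduced, sgAAVS1, sg1-IRF2 and sg2-IRF2 in turn, with the sgAAVS1 libraries above the untransduced and sg2-IRF2 ones, and it has 4 pseudogenes named after it in GENCODE 29, so its differences are uncertain and it was left out of the intervals below. Counted as reads per exonic base, the members had a median of 0.182 and a highest value of 0.387, against a median of 0.0714 and a 99th percentile of 0.408 over 12209 tested genes. How duplicate reads were treated is not given in the sources used here, and whether it compressed the levels of abundant genes was not tested. Exons of MCM2, GINS3, GINS4, RFC5, TYMS, CCNE2, PLK1 and FOXM1 overlap a gene on the opposite strand over at least 10% of their length, and those of RRM2 and BUB1B a gene on the same strand. The strand setting of the counting is likewise not given, so reads of those genes and their neighbours cannot be told apart.

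**Figure D2:**
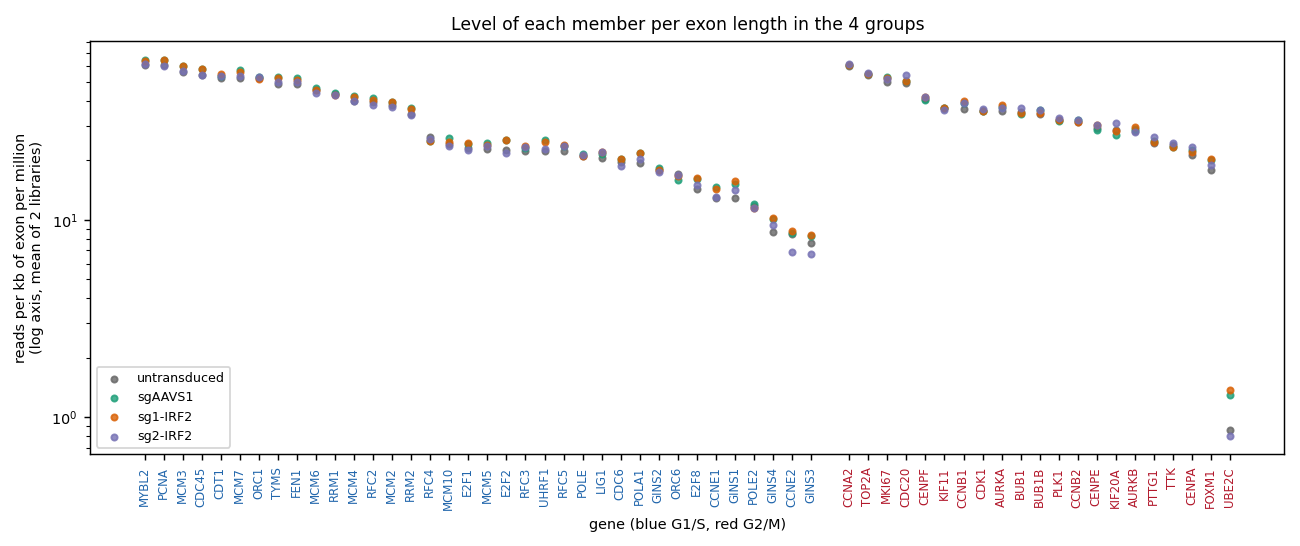
Level of each of the 57 genes as RPKM, reads per kb of exon scaled to library size (log y axis, mean of 2 libraries), coloured by group, with G1/S genes (blue names) and G2/M genes (red names) each in falling order of the untransduced level. The 4 groups lie close together for nearly every gene, and UBE2C lies far below the rest.

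The first question was whether these genes differed where IRF2 was repressed, and none of them passed the test when both IRF2 guides were set against sgAAVS1. In limma's moderated test with Benjamini-Hochberg adjustment over all tested genes, 0 of 57 members passed an adjusted p of 0.05, where 1.42% of all tested genes did. At an unadjusted p under 0.05 there were 5, and voom on the recovered reads also called 0. The differences without UBE2C ran from -0.14 for GINS3 to 0.14 for KIF20A, a mitotic kinesin needed for cytokinesis, and UBE2C stood at -0.48 ± 0.48 (SE). The 95% interval of the difference lay within 0.25 on either side of 0 for 53 of the other 56 members and within 0.5 for all 56. Without sgAAVS1 replicate 1 the count was 1.

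The median difference was -0.044 over the G1/S members, with 30 of 36 below 0, and 0.014 over the G2/M members, with 14 of 21 above 0, where the median of all tested genes was 0.0032. Among the replication genes the 6 that turn the loaded ring into a helicase (MCM10, CDC45 and the 4 GINS genes) all lay below 0, from -0.14 to -0.011, as did the 4 transcription factor genes E2F1, E2F2, E2F8 and MYBL2, from -0.11 to -0.041. The 10 licensing genes had a median of -0.040, with 8 below 0. Among the mitotic genes the centromere genes CENPA, CENPE and CENPF lay at 0.0031 to 0.080, while the 3 cyclin genes and CDK1 lay between -0.013 and 0.023. None of these passed the test.

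With sg1-IRF2, the guide that left fewer IRF2 reads, the members were closest to sgAAVS1. There 0 of 57 passed the limma test, against 0.791% of all tested genes, 0 had an unadjusted p under 0.05, and voom called 0. The differences without UBE2C ran from -0.073 for MCM10 to 0.076 for CENPE, a kinetochore motor, and the intervals of all 56 lay within 0.25 of 0. MCM10, which joins the helicase at origin firing, had 7.22 and 7.23 in untransduced cells, 7.35 and 7.33 under sgAAVS1, 7.28 and 7.26 under sg1-IRF2, and 7.23 and 7.18 under sg2-IRF2, and CENPE had 8.32 and 8.26, 8.23 and 8.30, 8.35 and 8.34, and 8.35 and 8.36 in the same order. The sgAAVS1 libraries were the highest 2 for MCM10, and for CENPE the 4 libraries of the IRF2 guides were above the other 4. The class medians were -0.014 for G1/S and 0.0058 for G2/M.

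With sg2-IRF2, 3 of 57 members (5.26%) differed from sgAAVS1 in the limma test, against 3.41% of all tested genes. GINS3 and E2F2 were the 2 lower ones, where 1.62% of all genes were called lower, and KIF20A was the 1 higher one, where 1.79% were called higher. GINS3, a subunit of the 4-part GINS complex of the helicase, had aligned log2 values of 5.55 and 5.62 with sgAAVS1 and 5.32 and 5.27 with sg2-IRF2, while sg1-IRF2 gave 5.63 and 5.57 and the untransduced cells 5.43 and 5.50. The sg2-IRF2 libraries were the lowest 2 of the 8 and did not overlap those of any other group. GINS3 fell by 0.29 ± 0.073 (SE, log2, limma adjusted p = 0.0300), with exons that overlap AC009118.2 on the opposite strand.

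E2F2, an activating E2F factor that is prominent in erythroid cells, stood at 7.34 and 7.27 with sgAAVS1 and at 7.07 and 7.10 with sg2-IRF2. It stood at 7.31 and 7.30 with sg1-IRF2 and at 7.14 and 7.12 in untransduced cells. The sgAAVS1 and sg1-IRF2 values overlapped each other, and all 4 lay above all 4 of the untransduced and sg2-IRF2 values. Against sgAAVS1 it fell by 0.22 ± 0.047 (SE, limma adjusted p = 0.0118) with sg2-IRF2, a 1.16-fold lower level.

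KIF20A had 6.98 and 6.86 under sgAAVS1, 6.99 and 7.0 under sg1-IRF2, 7.09 and 7.17 under sg2-IRF2, and 7.02 and 7.0 without a guide. The sg2-IRF2 libraries were the highest 2 and sgAAVS1 replicate 2 was the lowest. KIF20A rose by 0.21 ± 0.053 (SE, limma adjusted p = 0.0300), a 1.16-fold higher level. CCNE2 had the lowest difference outside UBE2C, -0.31 ± 0.088, and did not pass (adjusted p = 0.0618). Over the classes, both sg2-IRF2 libraries lay below both sgAAVS1 libraries for 14 of 36 G1/S members and 3 of 21 G2/M members, against 21.5% of all tested genes, and above both for 1 and 5 of them, against 22.4%. The median difference was -0.081 for G1/S, with 30 of 36 below 0, and 0.029 for G2/M, with 15 of 21 above 0. Leaving out either sg2-IRF2 library ended all 3 calls. The count was 6 without sgAAVS1 replicate 1, 5 without sgAAVS1 replicate 2, and 1 without untransduced replicate 2, which enters only through the shared spread.

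**Figure D3:**
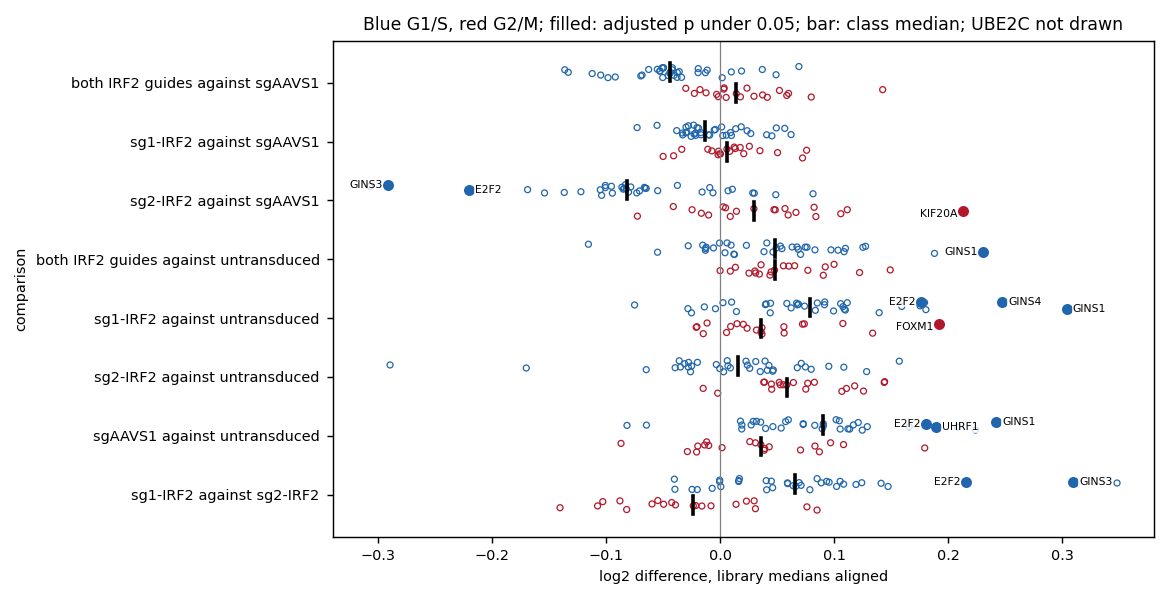
Fitted log2 difference (x axis) of each G1/S member (blue) and G2/M member (red) in the 8 comparisons (y axis), with filled points for adjusted p under 0.05 and a black bar at the class median; UBE2C is not drawn but counts in the medians. The G1/S and G2/M bars part most for sg2-IRF2 against sgAAVS1 (-0.081 and 0.029) and for sg1-IRF2 against sg2-IRF2 (0.065 and -0.024).

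Against untransduced cells, which lack any guide, the control guide itself gave 3 calls among the members. The comparisons with untransduced cells share those 2 libraries, so they are given side by side and not as repeats of each other. With sgAAVS1, 3 of 57 members were higher in the limma test and 0 lower, against 2.06% of all genes called higher and 4.42% called in either direction. With sg1-IRF2 4 were higher, against 2.40% higher and 5.34% in either direction. With sg2-IRF2 0 passed, against 0.798% of all genes, with 5 at an unadjusted p under 0.05 and 0 by voom. For both IRF2 guides together 1 was higher, against 0.955% higher and 2.52% in either direction. The lowest differences were those of KIF20A with sgAAVS1 (-0.09 ± 0.053) and CCNE2 with both IRF2 guides (-0.12 ± 0.076).

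GINS1, another GINS subunit, had aligned log2 values of 5.82 and 5.95 in untransduced cells, 6.06 and 6.20 under sgAAVS1, 6.21 and 6.17 under sg1-IRF2, and 6.02 and 6.07 under sg2-IRF2. Its untransduced libraries were the lowest 2 of the 8. GINS1 rose by 0.24 ± 0.066 (SE, adjusted p = 0.0427) with sgAAVS1, by 0.30 ± 0.066 (adjusted p = 0.00951) for sg1-IRF2, and by 0.23 ± 0.058 (adjusted p = 0.0351) with both IRF2 guides in limma. With sg2-IRF2 its difference was 0.16 ± 0.066 (adjusted p = 0.458), the highest of any member there, where CCNE2 was the lowest at -0.29 ± 0.088 (adjusted p = 0.195). GINS4, the third GINS gene with a call, had 5.79 and 5.71 in untransduced cells and 5.89 and 6.06 with sgAAVS1. It stood at 6.0 in both sg1-IRF2 libraries and at 5.87 and 5.89 with sg2-IRF2, so that all 6 transduced libraries lay above both untransduced ones. GINS4 rose by 0.25 ± 0.068 with sg1-IRF2 (limma adjusted p = 0.0383), and its exons overlap AC009630.2 on the opposite strand over 23.6% of their length.

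E2F2 rose by 0.18 ± 0.047 against untransduced cells both with sgAAVS1 (limma adjusted p = 0.0345) and with sg1-IRF2 (adjusted p = 0.0346), whereas for sg2-IRF2 its difference was -0.040 ± 0.047. UHRF1, which recruits the maintenance DNA methyltransferase to newly copied DNA, had 7.02 and 7.05 without a guide, 7.23 and 7.21 under sgAAVS1, 7.21 and 7.17 with sg1-IRF2 and 7.06 and 7.08 for sg2-IRF2. Its 4 sgAAVS1 and sg1-IRF2 values lay above the other 4, and UHRF1 rose by 0.19 ± 0.047 (limma adjusted p = 0.0256) with sgAAVS1. FOXM1, the transcription factor of the mitotic genes, had 6.70 and 6.57 for untransduced, 6.79 and 6.84 for sgAAVS1, 6.82 and 6.83 for sg1-IRF2 and 6.72 and 6.76 for sg2-IRF2. FOXM1 was the only G2/M member that passed here. It rose by 0.19 ± 0.055 with sg1-IRF2 (limma adjusted p = 0.0477), did not pass with the replicate number as a block (adjusted p = 0.0505), and has exons that overlap ITFG2 on the opposite strand.

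**Figure D4:**
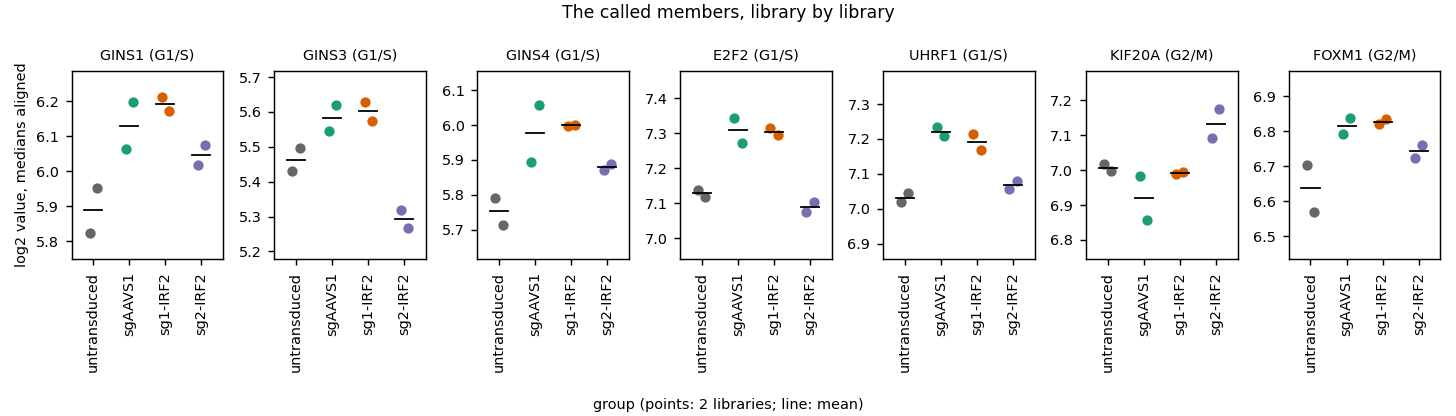
Aligned log2 values (y axis) of the 7 members called in any comparison in each library, by group (x axis, 2 points a group, line at the mean); each panel spans the same log2 range. E2F2 and UHRF1 are high with sgAAVS1 and sg1-IRF2 and low in untransduced cells and with sg2-IRF2, GINS3 is lowest with sg2-IRF2, and GINS1 and GINS4 are lowest in untransduced cells.

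Over the classes, 34 of 36 G1/S members lay above 0 with sgAAVS1 against untransduced cells (median 0.090), 31 with sg1-IRF2 (median 0.079) and 22 with sg2-IRF2 (median 0.016). The K562 markers lay above 0 in the same comparisons, 12, 12 and 11 of 13, with medians of 0.12, 0.096 and 0.072, and their part in these values was not tested. Both libraries lay above both untransduced ones for 15 G1/S members with sgAAVS1, against 23.0% of all tested genes, for 19 with sg1-IRF2, against 27.2%, and for 9 with sg2-IRF2, against 23.4%. Among the groups with a guide, the G2/M members were highest with sg2-IRF2, where the G1/S members were lowest. Their median was 0.036 for sgAAVS1, 0.036 for sg1-IRF2 and 0.058 under sg2-IRF2, and both libraries lay above both untransduced ones for 6, 7 and 17 of 21. Of the polymerase and loader genes only POLA1, the catalytic subunit of the primase-polymerase, came near the threshold, at 0.18 ± 0.051 (adjusted p = 0.0513) with sgAAVS1 and 0.18 ± 0.051 (adjusted p = 0.0526) with sg1-IRF2. The calls against untransduced cells moved with single libraries. Without untransduced replicate 1 none was left in any of these comparisons, and without untransduced replicate 2 there was 1, with sg1-IRF2. Leaving out either sg1-IRF2 library gave 0 calls with sg1-IRF2 and with both IRF2 guides and 1 with sgAAVS1, and leaving out either sg2-IRF2 library gave 1, 0 and 0. Without sgAAVS1 replicate 1 the counts were 5 with sgAAVS1, 7 with sg1-IRF2, 4 with both IRF2 guides and 1 with sg2-IRF2, and without sgAAVS1 replicate 2 they were 11, 7, 4 and 1.

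The IRF2 guides were then set against each other, where the control groups enter only through the shared estimate of the spread. In limma 2 of 57 members were higher with sg1-IRF2 than with sg2-IRF2 and 0 lower, against 0.586% of all tested genes called higher and 1.58% in either direction. GINS3 was higher by 0.31 ± 0.073 (SE, log2, adjusted p = 0.0356), 1.24-fold, and E2F2 by 0.22 ± 0.047 (adjusted p = 0.0233), 1.16-fold. CCNE2 had the largest difference of the members other than UBE2C and missed the threshold. Its values were 5.49 and 5.44 with sg1-IRF2, 5.04 and 5.19 with sg2-IRF2, 5.35 and 5.50 with sgAAVS1, and 5.51 and 5.31 in untransduced cells, and the difference was 0.35 ± 0.088 (adjusted p = 0.0527). Its exons overlap INTS8 on the opposite strand over 37.1% of their length. The lowest difference was that of KIF20A, -0.14 ± 0.053 (adjusted p = 0.233).

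The median difference between the IRF2 guides was 0.065 over the G1/S members, with 29 of 36 above 0, and -0.024 over the G2/M members, with 14 of 21 below 0. Both sg1-IRF2 libraries lay above both sg2-IRF2 libraries for 17 of 36 G1/S members and 4 of 21 G2/M members, against 23.5% of all tested genes. Before the library medians were aligned, the median of all tested genes differed by 0.11 between these groups. On that scale 23 members were called higher with sg1-IRF2, so the count depends on the alignment. The share of all tested genes called on that scale is not given here, so the 23 are not read as a result about the members. Both calls ended without either sg1-IRF2 library, either sg2-IRF2 library or either untransduced library.

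**Figure D5:**
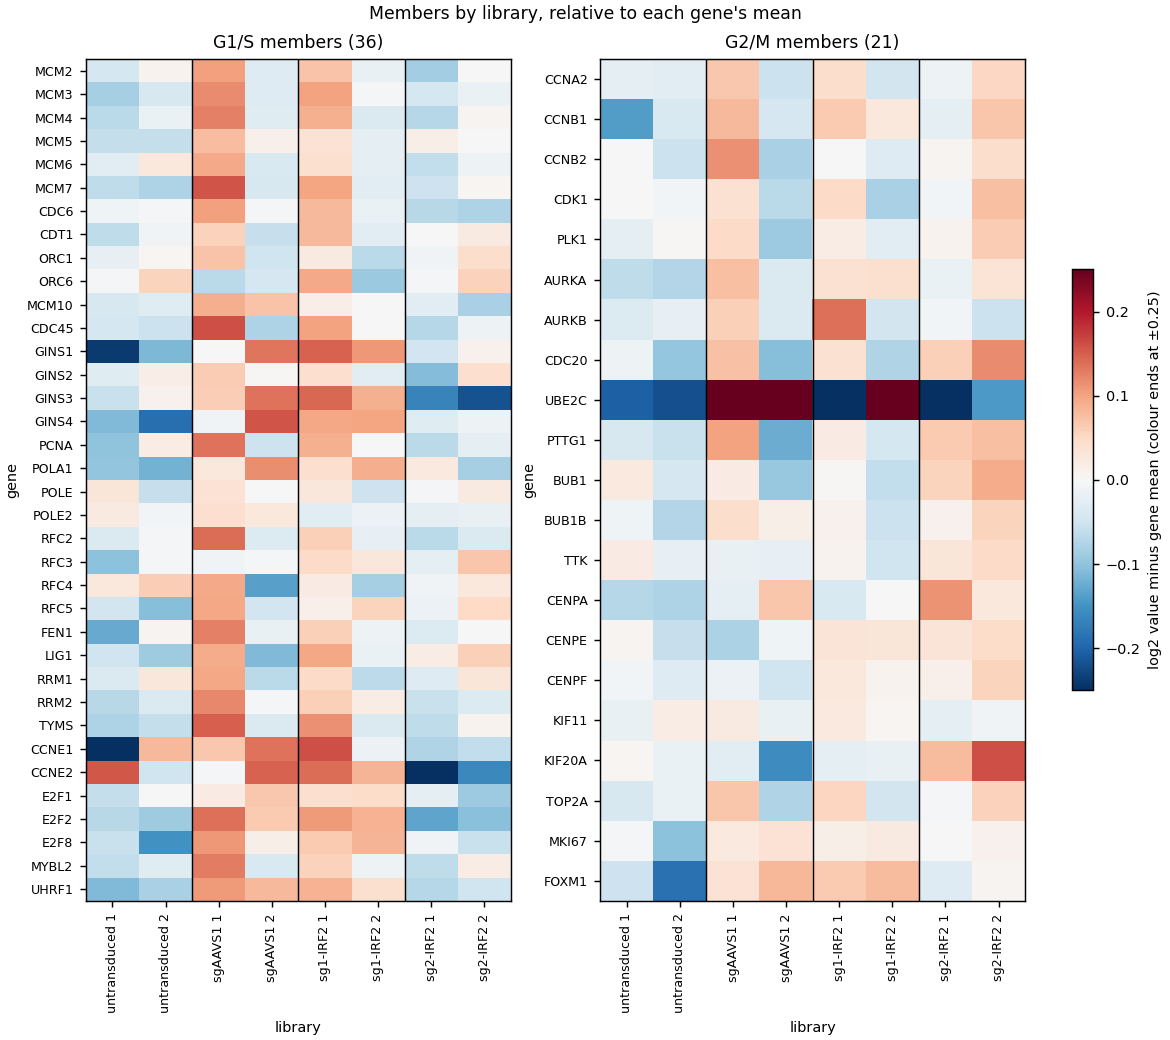
Aligned log2 value of each member (y axis) in each library (x axis) minus the gene's mean over the 8 libraries, with G1/S members on the left and G2/M members on the right; colours end at 0.25 on either side of 0, which UBE2C passes. Within sgAAVS1 and within sg1-IRF2, replicate 1 is above replicate 2 for most members of both classes, and CCNE2, GINS3 and E2F2 are lowest with sg2-IRF2.

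To set G1/S against G2/M genes directly, each library was given the median of its members' deviations from the gene means. The G1/S median minus the G2/M median was -0.039 and 0.019 in the untransduced libraries, 0.051 and 0.030 under sgAAVS1, 0.043 and 0.012 under sg1-IRF2, and -0.054 and -0.059 with sg2-IRF2. Both sg2-IRF2 libraries were thus the lowest 2 of the 8. The 4 sgAAVS1 and sg1-IRF2 libraries were all above 0, and untransduced replicate 2 lay within their range. The SD within groups, pooled over the 4 groups, was 0.025. As a difference of class medians in the fit, G1/S minus G2/M was -0.11 for sg2-IRF2 against sgAAVS1, 0.089 for sg1-IRF2 against sg2-IRF2, -0.058 for both IRF2 guides against sgAAVS1, 0.054 for sgAAVS1 against untransduced cells, 0.043 for sg1-IRF2, -0.043 for sg2-IRF2 and 7.34e-05 for both IRF2 guides against untransduced cells, and -0.019 for sg1-IRF2 against sgAAVS1. These are descriptions over a chosen list and carry no test. The value of sg2-IRF2 against sgAAVS1 was -0.068 without sgAAVS1 replicate 1. That of sg1-IRF2 against untransduced cells was -0.0035 without untransduced replicate 1 and 0.068 without untransduced replicate 2, and that of sg2-IRF2 against untransduced cells was -0.090 and -0.0073. Within sgAAVS1 and sg1-IRF2 replicate 1 lay above replicate 2 in both class medians, by 0.095 against -0.012 for G1/S with sgAAVS1 and 0.068 against -0.014 with sg1-IRF2. On the difference of the class medians the libraries of each of these groups lay closer, with 0.051 and 0.030 for sgAAVS1 and 0.043 and 0.012 for sg1-IRF2 as given above. Those of sg2-IRF2 also lay closer. The untransduced libraries lay further apart on the difference (-0.039 and 0.019) than on the G1/S median (-0.057 and -0.023) or the G2/M median (-0.018 and -0.042).

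Values of well known members show the size of these shifts by role. MCM2, a subunit of the replicative helicase, stood at 7.71 and 7.76 in untransduced cells, 7.86 and 7.72 under sgAAVS1, 7.83 and 7.74 under sg1-IRF2, and 7.67 and 7.76 under sg2-IRF2. CDC6, which loads that helicase on origins, stood at 6.96 and 6.97, then 7.07 and 6.97, 7.05 and 6.95, and 6.90 and 6.89, with sg2-IRF2 lowest. Its difference of sg2-IRF2 from sgAAVS1 was -0.12 ± 0.053 (adjusted p = 0.237). For MCM2 all 4 groups overlapped, and for CDC6 the sg2-IRF2 libraries lay below the other 6.

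PCNA had 6.61 and 6.73 without a guide, 6.85 and 6.66 under sgAAVS1, 6.80 and 6.71 with sg1-IRF2 and 6.64 and 6.69 for sg2-IRF2. RRM2, the regulated subunit of ribonucleotide reductase, had 7.68 and 7.71, then 7.87 and 7.75, 7.81 and 7.77, and 7.69 and 7.71. Its difference of sgAAVS1 from untransduced cells was 0.11 ± 0.048 (adjusted p = 0.214). TYMS, thymidylate synthase, had 7.09 and 7.11, 7.32 and 7.13, 7.28 and 7.13, and 7.10 and 7.18 in the same order, and its exons overlap ENOSF1 on the opposite strand over 46.6% of their length. In these 3 genes replicate 1 of sgAAVS1 and of sg1-IRF2 was the higher library of its group.

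CCNE1, the cyclin of S phase entry, had 5.02 and 5.39 for untransduced, 5.38 and 5.45 for sgAAVS1, 5.48 and 5.30 for sg1-IRF2 and 5.24 and 5.25 for sg2-IRF2. Its spread between the untransduced libraries was larger than any difference between groups, the largest of which was 0.21 ± 0.10 (sgAAVS1 against untransduced cells, adjusted p = 0.278). E2F1, the activating factor best known for driving S phase genes, had 6.02 and 6.08, 6.10 and 6.14, 6.12 and 6.12, and 6.05 and 5.99 in the same order of groups. The sg2-IRF2 and untransduced values of E2F1 overlapped and lay below the other 4.

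Among the mitotic genes CCNB1, the cyclin of mitotic entry, had 6.68 and 6.78 in untransduced cells, 6.90 and 6.78 under sgAAVS1, 6.89 and 6.85 under sg1-IRF2, and 6.80 and 6.89 under sg2-IRF2. CDK1, its kinase, had 7.32 in both untransduced libraries, then 7.36 and 7.26, 7.37 and 7.25, and 7.32 and 7.40. The differences of CDK1 over the 8 comparisons lay between -0.050 and 0.048. PLK1, a kinase of centrosomes and spindle assembly, had 7.43 and 7.45, 7.50 and 7.36, 7.47 and 7.42, and 7.46 and 7.51 in the same order, and AURKA, the spindle pole kinase, 6.89 and 6.88, 7.02 and 6.91, 6.99 and 6.99, and 6.93 and 6.98. For CDK1 and PLK1 the sgAAVS1 range overlapped that of every other group, whereas for AURKA the untransduced libraries were the lowest 2.

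CDC20, the activator of the anaphase-promoting complex, had 6.89 and 6.80 without a guide, 6.97 and 6.79 under sgAAVS1, 6.94 and 6.83 with sg1-IRF2 and 6.96 and 7.02 for sg2-IRF2. Its difference of sg2-IRF2 from untransduced cells was 0.14 ± 0.061 (adjusted p = 0.462). TOP2A, the topoisomerase that untangles sister chromatids, had 8.61 and 8.64, 8.72 and 8.58, 8.71 and 8.61, and 8.65 and 8.71. MKI67, the proliferation marker that coats mitotic chromosomes, had 9.56 and 9.46, 9.59 and 9.60, 9.58 and 9.59, and 9.57 and 9.58, so that only untransduced replicate 2 stood apart. None of these 3 passed the test in any of the 8 comparisons. RFC4, a clamp loader subunit, had the lowest difference of sg1-IRF2 from untransduced cells, -0.075 ± 0.067, with values of 6.47 and 6.51 without a guide, 6.54 and 6.31 under sgAAVS1, 6.47 and 6.36 under sg1-IRF2, and 6.44 and 6.47 under sg2-IRF2, where the sgAAVS1 libraries spanned all the others.

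Other genes of the cycle were counted from lists of the same pathways. Of 36 further replication genes, all tested, CLSPN, an adaptor of the replication checkpoint, was the only one called in any comparison, 1 of 36 (2.78%), against 3.41%, 4.42%, 5.34% and 1.58% of all tested genes in the comparisons that follow, in the order sg2-IRF2 against sgAAVS1, sgAAVS1 and sg1-IRF2 against untransduced cells, and sg1-IRF2 against sg2-IRF2. It fell by 0.18 ± 0.045 with sg2-IRF2 against sgAAVS1 (limma adjusted p = 0.0279), rose by 0.16 ± 0.045 with sgAAVS1 (0.0429) and by 0.16 ± 0.045 with sg1-IRF2 (0.0397) against untransduced cells, and was higher by 0.18 ± 0.045 with sg1-IRF2 than with sg2-IRF2 (0.0490). Its 4 values with sgAAVS1 and sg1-IRF2 ran from 7.67 to 7.71 and the other 4 from 7.50 to 7.56. Of 43 further mitosis genes, all tested, ASPM, a spindle pole protein, and ESPL1, the separase that cuts cohesin, were the 2 called, 4.65% of the list. Against untransduced cells 4.42% of all tested genes were called with sgAAVS1, 5.34% with sg1-IRF2 and 2.52% with both IRF2 guides. Those called higher were 2.06%, 2.40% and 0.955% in the same order. Against untransduced cells ASPM rose by 0.22 ± 0.043 with sgAAVS1 and with sg1-IRF2, and ESPL1 rose by 0.21 ± 0.046 with sgAAVS1 and by 0.27 ± 0.046 with sg1-IRF2. With both IRF2 guides ASPM rose by 0.16 ± 0.037 and ESPL1 by 0.20 ± 0.040. Over these lists the median difference of sg2-IRF2 from sgAAVS1 was -0.044 for replication, with 27 of 36 below 0, and 0.028 for mitosis, with 30 of 43 above 0.

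Of 32 regulators upstream of the members, all tested, 2 were called in the comparisons given here. With both IRF2 guides against sgAAVS1 1 was lower and 1 higher (6.25%, against 1.42% of all tested genes). Against sgAAVS1, 1 was called with sg1-IRF2 (3.12%, against 0.791%) and 1 with sg2-IRF2 (3.12%, against 3.41%). Against untransduced cells, 1 was called with sgAAVS1 (3.12%, against 4.42%), 1 with sg1-IRF2 (3.12%, against 5.34%) and 1 with both IRF2 guides (3.12%, against 2.52%). CCND1, the D cyclin that starts RB phosphorylation, fell by 0.29 ± 0.062 (limma adjusted p = 0.0194) with both IRF2 guides and by 0.39 ± 0.072 (adjusted p = 0.00628) with sg1-IRF2 against sgAAVS1. Against untransduced cells it fell by 0.31 ± 0.062 (adjusted p = 0.00892) with both IRF2 guides and by 0.41 ± 0.072 (adjusted p = 0.00191) with sg1-IRF2. Its values were 6.09 and 6.18 for untransduced, 6.01 and 6.22 for sgAAVS1, 5.76 and 5.69 for sg1-IRF2 and 5.91 and 5.95 for sg2-IRF2, so the 4 IRF2 guide libraries lay below the other 4. With sg2-IRF2 alone CCND1 passed against neither sgAAVS1 nor untransduced cells. CCNG2, an atypical cyclin linked to cell cycle arrest, rose by 0.40 ± 0.072 (limma adjusted p = 0.00384) with both IRF2 guides against sgAAVS1. With sg2-IRF2 alone it rose by 0.51 ± 0.083 (adjusted p = 0.0012) against sgAAVS1, and with sg1-IRF2 alone it did not pass. Against untransduced cells it fell by 0.45 ± 0.083 (adjusted p = 0.00349) with sgAAVS1 itself. Its values were 5.28 and 5.56 with sgAAVS1 and 5.70 to 6.0 in the other 6 libraries.

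CDKN1A, the p21 inhibitor of cyclin-dependent kinases, had 5.86 and 5.83 in untransduced cells, 5.48 and 5.52 under sgAAVS1, 5.27 and 5.23 under sg1-IRF2, and 5.23 and 5.27 under sg2-IRF2. It fell by 0.59 ± 0.062 (limma adjusted p = 5.27e-06) with both IRF2 guides and by 0.34 ± 0.071 (adjusted p = 0.00842) with sgAAVS1 against untransduced cells. Against sgAAVS1 it fell by 0.25 ± 0.062 with both IRF2 guides (adjusted p = 0.0442), and the groups sgAAVS1, untransduced and IRF2 guides did not overlap. With either IRF2 guide alone against sgAAVS1 it did not pass. CDKN1C, the p57 inhibitor, was lower by 0.33 ± 0.063 with sg1-IRF2 than with sg2-IRF2 (limma adjusted p = 0.00979). Against untransduced cells it fell by 0.36 ± 0.063 with sgAAVS1 itself (adjusted p = 0.00235) and by 0.32 ± 0.063 with sg1-IRF2 (adjusted p = 0.00435). With sg2-IRF2 it was higher than with sgAAVS1 by 0.36 ± 0.063 (adjusted p = 0.00197). Its 4 values with sgAAVS1 and sg1-IRF2 ran from 6.06 to 6.18 and the other 4 from 6.41 to 6.53. Of 7 inhibitors 5 were tested. With both IRF2 guides 1 passed against untransduced cells (20%, against 2.52% of all tested genes) and 1 against sgAAVS1 (20%, against 1.42%). With sgAAVS1 against untransduced cells 2 passed (40%, against 4.42%), and between the IRF2 guides 1 did (20%, against 1.58%). With sg1-IRF2 against untransduced cells 2 passed (40%, against 5.34%), and with sg2-IRF2 against sgAAVS1 1 did (20%, against 3.41%). The replication-dependent histone genes, whose RNA builds up in S phase and carries no poly(A) tail, were kept by ribosomal depletion, and 52 of 69 listed were tested. With both IRF2 guides 51 of 52 lay above 0 against untransduced cells (median 0.14) and 41 of 52 against sgAAVS1 (median 0.034). By guide, 47 of 52 lay above 0 against sgAAVS1 with sg1-IRF2 (median 0.064) and 27 of 52 with sg2-IRF2 (median 0.0013). With sgAAVS1 itself 45 of 52 lay above 0 against untransduced cells (median 0.11). HIST1H2BF and HIST1H3J were the 2 called with both IRF2 guides against untransduced cells (3.85% of the list, against 2.52% of all tested genes). They were higher by 0.26 ± 0.068 (limma adjusted p = 0.0435) and 0.21 ± 0.054 (adjusted p = 0.0416). Both also passed with sg1-IRF2 against untransduced cells, higher by 0.28 ± 0.078 and 0.26 ± 0.062, and neither passed with sgAAVS1.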

How the data were processed

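Values are log2 expression deposited by the authors, 1 column per library, and they equal log2 of the reads of a gene divided by 1 factor per library, with 0 reads set to 0.9 read. Whole reads came back for 100% of the values (tolerance 0.01 read). Per the submitters' processing notes cutadapt, Bowtie2 and hg38 were used. The sources used here do not give their versions, the counting tool, annotation, strand setting or treatment of duplicates. Per the labels' protocols, column-purified RNA was treated with DNase, depleted of ribosomal RNA and made into directional libraries.

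Libraries held 5248359 to 6738348 recovered reads, and their number limits the precision of the lowest members. Genes whose deposited log2 values averaged 0 or more were tested, 14665 in all. Library medians over them were aligned, and limma fitted a mean for each of 4 groups over all 8 libraries (limma 3.58.1, R 4.3.3; lmFit, contrasts.fit, eBayes with a mean-variance trend), with 4 residual and 14.9 prior degrees of freedom. Tests were two-sided, Benjamini-Hochberg adjustment ran over all tested genes in each of 8 comparisons, and a gene was called at an adjusted p under 0.05. The fit was tested on simulated data with known changes. Those changes were larger than the differences called among the members, so that test does not cover differences of their size. The planned count models were not run, since the deposited unit is log2, and voom on recovered reads took their place. Exons and overlaps came from GENCODE 29 and promoters from RefSeq, and a table of motif letters was searched in Python 3.11.15. Members and lists were chosen with earlier results of these data known. Full values are given for called members, for the highest and lowest member of each comparison and for a fixed set of examples by role (MCM2, CDC6, PCNA, CCNE1, E2F1, RRM2, TYMS, CCNB1, CDK1, PLK1, AURKA, CDC20, TOP2A, MKI67, FOXM1). Alternatives changed the scaling, the filter, the trend, the libraries in the fit, the class summary and the class membership.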

Additional observations from a re-analysis of the deposited data

Results flagged for a closer look

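For 2 members the levels under the IRF2 guides differed by a test of the difference itself. GINS3 was higher under sg1-IRF2 than under sg2-IRF2 by 0.309 on the log2 scale (SE 0.073, limma adjusted p = 0.0356), with values of 5.63 and 5.57 against 5.32 and 5.27. E2F2 was higher by 0.216 (SE 0.047, limma adjusted p = 0.0233), with 7.31 and 7.30 against 7.07 and 7.10. The members were chosen with earlier results of these data known, and no other member passed this test in this fit. Neither call was kept without the mean-variance trend or with all genes that had a read, and more members were called before alignment. Exons of GINS3 overlap AC009118.2 on the opposite strand. Over all genes the libraries of these guides gave a chi-square per degree of freedom of 1.27 to 1.55 between them. The part of that distance here was not tested.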

How the results depend on the processing

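All 13 calls of members (7 genes) kept their direction in all 16 alternatives that were refitted, but few kept their side of the threshold in some of them. Without the trend 0 of the 13 were kept, with all genes that had a read in any library 1, with only the compared groups 7, with values as deposited 12, with voom 12, and with quantile normalization or a mean log2 of at least 2 all 13. Without the trend the counts were 0 in every comparison. With all genes that had a read they were 0 for sg2-IRF2 against sgAAVS1, for both IRF2 guides and for sgAAVS1 against untransduced cells and for sg1-IRF2 against sg2-IRF2, and 1 for sg1-IRF2 against untransduced cells. With values as deposited they were 8 for sg2-IRF2 against sgAAVS1, 11 for sg1-IRF2, 1 for sg2-IRF2 and 6 for sgAAVS1 against untransduced cells, and 23 for sg1-IRF2 against sg2-IRF2. With only the compared groups they were 0 for sg2-IRF2 against sgAAVS1, 4 for both IRF2 guides, 7 for sg1-IRF2, 1 for sg2-IRF2 and 0 for sgAAVS1 against untransduced cells. With class means instead of medians, G1/S minus G2/M was -0.083 for sg2-IRF2 against sgAAVS1 and 0.030 for sgAAVS1 against untransduced cells. The cause was not tested. The share of all tested genes called in each alternative is not given here, so these counts are not set against all genes.

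Without 1 library at a time the count of called members ranged from 0 to 1 for both IRF2 guides against sgAAVS1, 0 to 0 with sg1-IRF2 alone, 0 to 6 with sg2-IRF2 alone, 0 to 4 for both IRF2 guides against untransduced cells, 0 to 7 with sg1-IRF2, 0 to 1 with sg2-IRF2, 0 to 11 with sgAAVS1, and 0 to 3 for sg1-IRF2 against sg2-IRF2. In the same order G1/S minus G2/M ranged from -0.068 to -0.044, -0.031 to -0.010, -0.12 to -0.068, -0.047 to 0.026, -0.0035 to 0.068, -0.090 to -0.0073, 0.041 to 0.076 and 0.084 to 0.11. Of the 13 calls, 2 were kept without either untransduced library, 4 without either sg1-IRF2 library, 1 without either sg2-IRF2 library, and 12 and 10 without sgAAVS1 replicates 1 and 2. The lone library of a group was assumed to vary like the others.

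Same-numbered libraries deviated together only between sgAAVS1 and sg1-IRF2 (correlation of their deviations 0.51). It ran from -0.23 to 0.066 between the other groups, so the numbers were not taken as pairs over the whole design. With the replicate number as a block 12 of the 13 calls were kept and FOXM1 was lost, with counts of 3 for sg1-IRF2, 1 for both IRF2 guides and 3 for sgAAVS1 against untransduced cells, 3 for sg2-IRF2 against sgAAVS1 and 3 for sg1-IRF2 against sg2-IRF2, and 0 in the other 3 comparisons. The edgeR and DESeq2 alternatives were not run, because the deposited unit is log2. The voom fit and the class difference without members whose exons overlap another gene were chosen after seeing the data. With 2 libraries a group and 4 to 18 reads, UBE2C had an SE of 0.48 (log2) for both IRF2 guides against sgAAVS1, so smaller changes of it were not detectable.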
